A study of Mus musculus with 8 samples.

Results

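The genes described here are 42 genes of xenobiotic handling, glutathione metabolism and the NRF2 response, chosen as a list of symbols by their roles in these pathways and read in 4T1 cells, a mouse line from a mammary tumor that arose spontaneously in a BALB/c mouse, used as a model of triple-negative breast cancer. They were 42 of the 54532 genes listed, and 40 of them were among the 12704 genes that exceeded 1 CPM (counts per 1000000 counts of a library) in at least 2 libraries and could be tested. RNA sequencing of poly(A)-selected RNA compared cells carrying a scramble control shRNA with cells carrying an shRNA against MCT-1 (shMCT-1), which targets the translation regulator gene Mcts1 and not a monocarboxylate transporter. Both were stable lines kept under puromycin, and each was cultured with control IgG2b κ (IgG) or with 100 ng/ml of the anti-mouse IL-6R antibody 15A7 (anti-IL-6R), which blocks binding of IL-6 to its receptor, for 48 h. This made 4 groups of 2 libraries, namely scramble and shMCT-1 cells with IgG, and the same cells with anti-IL-6R. Since the labels name 1 shMCT-1 and 1 scramble line, the silencing of MCT-1 and other differences between the stable lines cannot be told apart, and no label says that replicates were separate cultures, so that p-values measure the spread between libraries only.

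NRF2, the product of Nfe2l2, is a transcription factor that KEAP1 holds in the cytosol and marks for degradation until electrophiles or oxidants modify KEAP1. It then enters the nucleus, pairs with small MAF proteins and binds antioxidant response elements (AREs) of genes that make and use glutathione, reduce thioredoxin, supply NADPH and detoxify quinones and carbonyls. A separate receptor, AHR, binds planar aromatic compounds and induces cytochrome P450 enzymes of family 1 through xenobiotic response elements (XREs). In many carcinomas the NRF2 program is active without exposure to drugs.

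The ARE core TGACNNNGC was searched on both strands in the RefSeq promoter windows (250 bases before to 50 bases after a transcript start, assembly GRCm38.p6), of which 33 of the 42 genes had at least 1. It was found in 12 of the 33 genes, 36.4% (95% Wilson interval 22.2 to 53.4%), and in 14.0% of the 27025 genes with such a window. The list was chosen for roles that include the NRF2 response, so a share above that of all genes is no finding about these cells. The sequences below show these 12 motifs with 10 bases on each side, and they match the core by letters alone. Capitals mark the motif or its reverse complement, and each sequence is written 5′ to 3′ along its gene.
Nfe2l2: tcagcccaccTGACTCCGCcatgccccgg
Gclm: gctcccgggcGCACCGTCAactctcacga
Txnrd1: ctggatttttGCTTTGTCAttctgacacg
Srxn1: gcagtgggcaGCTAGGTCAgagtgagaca
Prdx1: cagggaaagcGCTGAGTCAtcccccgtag
G6pdx: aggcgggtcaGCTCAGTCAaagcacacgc
Pgd: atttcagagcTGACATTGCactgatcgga
Me1: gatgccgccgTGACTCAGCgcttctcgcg
Gstm5: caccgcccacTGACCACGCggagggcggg
Mgst1: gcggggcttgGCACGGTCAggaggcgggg
Aldh9a1: ttaattatgcTGACTAGGCccaagctact
Abcc4: gccccgagagGCGGGGTCAgggcgggccg

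On GRCm38.p6, the Nfe2l2 stretch lies at chr2:75704885-75704913 on the minus strand, with its motif from 240 to 232 bases before the start. The Srxn1 stretch, chr2:152105542-152105570 on the plus strand, is inside the transcript, 29 to 37 bases after the start. The Gclm stretch is at chr3:122245413-122245441, that of Prdx1 at chr4:116685456-116685484, that of Gstm5 at chr3:107895802-107895830, that of Mgst1 at chr6:138140461-138140489, that of Aldh9a1 at chr1:167349894-167349922 and that of Txnrd1 at chr10:82859104-82859132, all on the plus strand. The others are on the minus strand, at chrX:74428919-74428947 for G6pdx, chr4:149166061-149166089 for Pgd, chr9:86695902-86695930 for Me1 and chr14:118706226-118706254 for Abcc4. The Me1 motif spans the start, that of Pgd lies past another of its starts, and that of Txnrd1 lies before a start inside the annotated gene. Abcc4 had a further motif before another of its starts. The XRE core TNGCGTG was found in 3 of the 33 genes (Aldh9a1, Pgd and Abcc4), 9.09%, and in 5.84% of all genes with a window, and windows for Gclc, Gsr, Prdx6, Gsta4, Hmox1, Aldh2, Aldh3a1, Ahr and Abcc1 were not used here. These matches describe letters in these windows and say nothing of binding.

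Library totals lay between 19839299 and 33063570 expected counts. Mcts1 (ENSMUSG00000000355) was measured at 15.4 and 11.8 CPM in scramble + IgG and 12.8 and 13.5 CPM in scramble given anti-IL-6R, against 6.32 and 6.18 CPM in shMCT-1 + IgG and 6.70 and 4.92 CPM in shMCT-1 given anti-IL-6R, and all shMCT-1 libraries were below all scramble libraries (log2 fold change -1.10 ± 0.12 SE, adjusted p = 1.13e-05). The 5 epithelial markers were present, with a summed level of 2325 to 2477 CPM in scramble and 3073 to 3331 CPM in shMCT-1 libraries, though Epcam alone went from 3.75 to 4.93 CPM in scramble to 49.4 to 54.5 CPM in shMCT-1 libraries. Of 5 immune, 4 endothelial and 4 fibroblast markers, 1, 1 and 2 passed the filter, and summed levels were 2.75 to 3.45 and 5.51 to 7.61 CPM (immune), 0.0960 to 0.332 and 0.554 to 1.91 CPM (endothelial) and 15.2 to 17.2 and 12.6 to 16.0 CPM (fibroblast) in scramble and shMCT-1 libraries. The 4 of these that passed were Cd68 (2.66 to 3.34 CPM in scramble and 5.42 to 7.51 CPM in shMCT-1 libraries), Cdh5 (0 to 0.124 and 0.454 to 1.46 CPM), Pdgfra (14.6 to 16.7 and 10.9 to 14.9 CPM) and Col1a1 (0.249 to 0.484 and 1.07 to 1.66 CPM). Cd68, Cdh5 and Col1a1 were higher in every shMCT-1 library, and Pdgfra overlapped and made up most of the fibroblast sum. The defining markers Cd3e and Lum were at 0 in every library, and the part of these marker levels in the results below was not tested.

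To ask how MCT-1 silencing bears on these genes, shMCT-1 was compared with scramble across both treatments. Of the 40 genes tested, 31 were differentially expressed genes (DEGs), with 15 higher and 16 lower in shMCT-1. Of these 40, 39 exceeded 1 CPM in at least 2 libraries of each background, and Ephx1 passed the filter through shMCT-1 libraries alone. Of all genes tested, 69.0% were DEGs, 35.0% higher and 34.0% lower. The share among the members was thus near the background, and the median log2 fold change was 0.030 over the members and 0.0099 over all genes. At least 2-fold DEGs numbered 13 of the 40 (5 higher, 8 lower) against a background of 15.3% (6.34% higher, 8.94% lower). The median absolute log2 fold change was 0.49 for the members and 0.40 for all genes. The members were chosen with earlier results of these data known, so larger changes than the background are no finding about these pathways. The 4 scramble and the 4 shMCT-1 libraries did not overlap in CPM for 32 members (15 higher, 17 lower in shMCT-1), against 64.1% of all genes (29.9% higher, 34.2% lower). Less RNA per cell and fewer cells with a transcript cannot be told apart in these bulk libraries.

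The members that rose most were the epoxide hydrolase gene Ephx1, the P450 gene Cyp2c55, the transferase gene Gstm5, the carbonyl reductase gene Cbr1 and the peroxiredoxin gene Prdx6. The members that fell by at least 2-fold were Cyp1b1, Aldh3a1, Nqo1, Gstt1, Mgst1, Nfe2l2, Srxn1 and Ahr. Nfe2l2 and Ahr, which encode the transcription factors at the head of both programs, fell together with some of their known targets, while other known targets rose or were not called. The levels of 18 members in each library are plotted on a log axis.

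**Figure D1:**
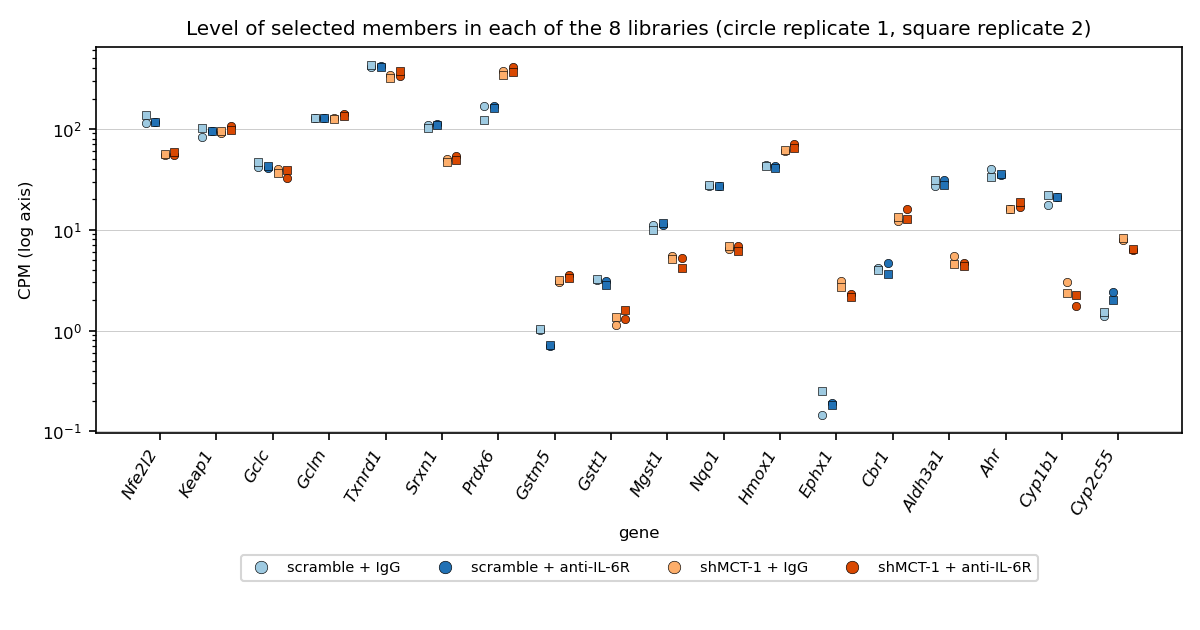
Level of 18 members in CPM (log axis) in each of the 8 libraries, coloured by group, with circles for replicate 1 and squares for replicate 2. In shMCT-1 the points for Nqo1, Aldh3a1 and Cyp1b1 lie well below those of scramble, those for Ephx1 lie above by 13.5-fold in the fit, and those for Keap1 and Gclm overlap.

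Among the regulators, Nfe2l2 (ENSMUSG00000015839, chr2:75675513-75704641, minus strand, GRCm38) was measured at 115 and 138 CPM in scramble + IgG and 117 and 116 CPM in scramble given anti-IL-6R, against 55.6 and 56.1 CPM in shMCT-1 + IgG and 55.6 and 58.8 CPM in shMCT-1 given anti-IL-6R. All shMCT-1 libraries lay below all scramble libraries, and the level fell 2.08-fold (log2 fold change -1.06 ± 0.074 SE, adjusted p = 6.57e-07). Keap1 (ENSMUSG00000003308, chr9:21229730-21239361), which encodes the adaptor that hands NRF2 to the CUL3 ubiquitin ligase, was measured at 83.4 and 103 CPM in scramble + IgG and 94.7 and 94.7 CPM in scramble given anti-IL-6R, against 91.5 and 95.3 CPM in shMCT-1 + IgG and 107 and 96.8 CPM in shMCT-1 given anti-IL-6R. The groups overlapped and the difference was not called (log2 fold change 0.10 [95% interval -0.066 to 0.28], adjusted p = 0.248). Without replicate 2 of scramble + IgG, which had the highest scramble value, Keap1 was called (log2 fold change 0.19, adjusted p = 0.0153).

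None of the 3 genes of glutathione synthesis was a DEG in this fit. Gclc, the catalytic subunit of glutamate-cysteine ligase and the rate-limiting enzyme of the pathway, was measured at 41.5 and 46.6 CPM in scramble + IgG and 41.1 and 43.1 CPM in scramble given anti-IL-6R, against 39.9 and 36.8 CPM in shMCT-1 + IgG and 32.5 and 38.8 CPM in shMCT-1 given anti-IL-6R. Every shMCT-1 library was below every scramble library, and the log2 fold change of -0.17 [95% interval -0.33 to -0.011] had an adjusted p of 0.0551. This call depended on the setting, since Gclc passed with DESeq2 (adjusted p = 0.0497), with the RLE size factors (0.0441) and with the stricter filter on low counts (0.0365). Gclm, the modifier subunit, was measured at 128 and 128 CPM in scramble + IgG and 129.5 and 128 CPM in scramble given anti-IL-6R, against 127 and 126 CPM in shMCT-1 + IgG and 140.5 and 136 CPM in shMCT-1 given anti-IL-6R. The groups overlapped, with a log2 fold change of 0.089 [95% interval -0.028 to 0.21] and an adjusted p of 0.157. Gss, glutathione synthetase, had a log2 fold change of 0.042 [95% interval -0.13 to 0.21].

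In glutathione reduction and the peroxidases, 1 of 3 genes was called. Gpx1, which reduces hydrogen peroxide with glutathione, rose from 203 ± 21.6 CPM to 249 ± 18.4 CPM (SD, n = 4 each, log2 fold change 0.34 ± 0.081 SE, adjusted p = 0.00291). Gsr, the reductase that regenerates glutathione, and Gpx4, which reduces lipid hydroperoxides, were not called, at log2 fold changes of 0.10 [95% interval -0.01 to 0.21] and -0.071 [95% interval -0.33 to 0.19]. Gpx4 ranged from 282 to 387 CPM in scramble and from 268 to 383 CPM in shMCT-1 libraries, and these ranges overlapped almost fully.

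All 5 genes of the thioredoxin system were DEGs, with 3 lower and 2 higher in shMCT-1. Srxn1, sulfiredoxin, which repairs over-oxidised peroxiredoxins, was measured at 109.5 and 102 CPM in scramble + IgG and 112 and 109 CPM in scramble given anti-IL-6R, against 50.5 and 47.5 CPM in shMCT-1 + IgG and 53.7 and 49.5 CPM in shMCT-1 given anti-IL-6R. The backgrounds did not overlap, and Srxn1 fell 2.08-fold (log2 fold change -1.05 ± 0.057 SE, adjusted p = 1.23e-07). Txnrd1, the cytosolic thioredoxin reductase, was measured at 408 and 435 CPM in scramble + IgG and 419 and 415 CPM in scramble given anti-IL-6R, against 339.5 and 322 CPM in shMCT-1 + IgG and 337 and 373 CPM in shMCT-1 given anti-IL-6R. Its shMCT-1 libraries were all lower (log2 fold change -0.24 ± 0.06 SE, adjusted p = 0.00422), by a far smaller amount than those of Srxn1. Txn1, thioredoxin itself, fell from 642 ± 71.2 to 496 ± 14.6 CPM (SD, n = 4 each, log2 fold change -0.32 ± 0.076, SE).

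The peroxiredoxin genes among the members, Prdx6 and Prdx1, went the opposite way. Prdx6, which takes its electrons from glutathione, was measured at 169 and 124 CPM in scramble + IgG and 168 and 162 CPM in scramble given anti-IL-6R, against 379 and 344 CPM in shMCT-1 + IgG and 407 and 367 CPM in shMCT-1 given anti-IL-6R. The shMCT-1 libraries were all above the scramble libraries, and the level rose 2.49-fold (log2 fold change 1.32 ± 0.088 SE, adjusted p = 5.07e-07). Prdx1 rose from 464 ± 55.6 to 593 ± 49.6 CPM (SD, n = 4 each), a log2 fold change of 0.40 ± 0.091 (SE). Replicate 2 of scramble + IgG held the lowest scramble value of Prdx6 (124 CPM), Prdx1 (385 CPM), Txn1 (543 CPM) and Gpx1 (174 CPM), and without it the log2 fold changes were 1.23, 0.31, -0.40 and 0.28. It was also lowest among the scramble libraries for Taldo1 (57.8 CPM), Gsto1 (74.8 CPM) and Gstp1 (115 CPM), described below, whose log2 fold changes without it were 0.65, 0.86 and 0.37.

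All 5 genes of the NADPH supply group were DEGs, with 2 lower and 3 higher in shMCT-1. G6pdx and Pgd, the dehydrogenases of the oxidative branch that release NADPH, fell, from 219 ± 8.24 to 165 ± 7.72 CPM and from 503 ± 9.90 to 432 ± 17.6 CPM (SD, n = 4 each), with log2 fold changes of -0.36 ± 0.053 and -0.17 ± 0.055 (SE). Tkt and Taldo1, transketolase and transaldolase of the non-oxidative branch, which itself releases no NADPH, rose by 0.23 ± 0.058 and 0.73 ± 0.078 (log2, SE). Me1, cytosolic malic enzyme, which does release NADPH, rose by 0.25 ± 0.053. Of these 5, Taldo1 had the largest absolute log2 fold change, and its groups went from 69.4 ± 7.87 to 111 ± 4.24 CPM (SD, n = 4 each). Pgd was the least firm, since its adjusted p of 0.0181 became 0.0702 with no filter on low counts and its call was lost without replicate 1 of scramble + anti-IL-6R or replicate 2 of shMCT-1 + IgG.

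Of the 8 glutathione transferases, 3 rose, 4 fell and Mgst3 was not called (log2 fold change 0.19 [95% interval -0.028 to 0.40]). Gstm5, a mu class transferase, was measured at 1.02 and 1.04 CPM in scramble + IgG and 0.704 and 0.726 CPM in scramble given anti-IL-6R, against 3.02 and 3.20 CPM in shMCT-1 + IgG and 3.53 and 3.32 CPM in shMCT-1 given anti-IL-6R. The lowest shMCT-1 library was far above the highest scramble library, and Gstm5 rose 3.91-fold (log2 fold change 1.97 ± 0.20 SE, adjusted p = 9.05e-06). Gstt1, of the theta class, was measured at 3.20 and 3.24 CPM in scramble + IgG and 3.10 and 2.81 CPM in scramble given anti-IL-6R, against 1.14 and 1.36 CPM in shMCT-1 + IgG and 1.31 and 1.59 CPM in shMCT-1 given anti-IL-6R. The backgrounds did not overlap, and Gstt1 fell 2.20-fold (log2 fold change -1.14 ± 0.18 SE, adjusted p = 0.000192). Mgst1, a membrane-bound transferase, was measured at 11.3 and 9.83 CPM in scramble + IgG and 11.2 and 11.6 CPM in scramble given anti-IL-6R, against 5.49 and 5.07 CPM in shMCT-1 + IgG and 5.29 and 4.14 CPM in shMCT-1 given anti-IL-6R. Here too every shMCT-1 library was lower, and Mgst1 fell 2.12-fold (log2 fold change -1.09 ± 0.11 SE, adjusted p = 9.61e-06).

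The abundant Gstp1, of the pi class, rose by 0.48 ± 0.095 and Gsto1, of the omega class, by 0.93 ± 0.083, whereas Gsta4, which conjugates lipid aldehydes, and Gstm1 fell, with log2 fold changes of -0.66 ± 0.077 and -0.91 ± 0.20 (SE). Divided by the length of the annotated exons, mean levels in scramble ran from 94.9 CPM per kb for Gstp1 over 45.4 for Gsto1, 15.6 for Gsta4, 13.0 for Mgst3, 5.45 for Mgst1, 2.64 for Gstm1 and 2.02 for Gstt1 down to 0.682 CPM per kb for Gstm5. In shMCT-1 the order began with 127 CPM per kb for Gstp1, 83.6 for Gsto1, 14.2 for Mgst3 and 9.53 for Gsta4, and Gstm5 (2.56) stood beside Mgst1 (2.48), above Gstm1 (1.36) and Gstt1 (0.886). Gstm5 and Mgst1 did not differ beyond their spread in shMCT-1. Near-identical transferase genes can share reads, and values that are not whole numbers were found in 8 libraries for Gstp1, 3 for Gstm5 and 1 for Gstm1, so that these levels carry an uncertain split between paralogs.

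Of the enzymes for quinones, heme, epoxides and carbonyls, 4 of 7 tested genes rose, 2 fell and Aldh2, the mitochondrial aldehyde dehydrogenase, was not called (log2 fold change -0.0099 [95% interval -0.13 to 0.11]). Nqo1 (ENSMUSG00000003849, chr8:107388225-107403206), the quinone reductase commonly read as an NRF2 target, was measured at 27.4 and 27.5 CPM in scramble + IgG and 26.9 and 27.0 CPM in scramble given anti-IL-6R, against 6.50 and 6.95 CPM in shMCT-1 + IgG and 6.96 and 6.10 CPM in shMCT-1 given anti-IL-6R. Replicates were close and the backgrounds far apart, and Nqo1 fell 3.97-fold (log2 fold change -1.99 ± 0.073 SE, adjusted p = 8.01e-09). Hmox1, heme oxygenase, another gene commonly read as an NRF2 target, was measured at 43.8 and 42.8 CPM in scramble + IgG and 43.1 and 41.1 CPM in scramble given anti-IL-6R, against 60.4 and 62.0 CPM in shMCT-1 + IgG and 70.7 and 65.2 CPM in shMCT-1 given anti-IL-6R. It changed in the opposite direction, with all shMCT-1 libraries higher and a rise of 1.56-fold (log2 fold change 0.64 ± 0.064 SE, adjusted p = 7.34e-06).

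Ephx1, microsomal epoxide hydrolase, was measured at 0.145 and 0.249 CPM in scramble + IgG and 0.192 and 0.181 CPM in scramble given anti-IL-6R, against 3.11 and 2.73 CPM in shMCT-1 + IgG and 2.32 and 2.14 CPM in shMCT-1 given anti-IL-6R. The scramble libraries were near the floor, 0.0907 to 0.151 CPM for 3 counts depending on the library, and the shMCT-1 libraries were all above 2 CPM, a rise of 13.5-fold (log2 fold change 3.75 ± 0.26 SE, adjusted p = 5.77e-07). Since no scramble library exceeded 1 CPM, Ephx1 was tested only because it was high in shMCT-1. It was left out by the stricter filter (more than 1 CPM in at least 7 libraries). Gstm5 was also left out by that filter, since its scramble libraries given anti-IL-6R were at 0.704 and 0.726 CPM. With no filter the log2 fold change of Ephx1 was 3.77, a value from the same libraries and no further support. Cbr1, carbonyl reductase, was measured at 4.14 and 3.94 CPM in scramble + IgG and 4.67 and 3.66 CPM in scramble given anti-IL-6R, against 12.1 and 13.3 CPM in shMCT-1 + IgG and 16.0 and 12.9 CPM in shMCT-1 given anti-IL-6R. No libraries overlapped between backgrounds, and Cbr1 rose 3.41-fold (log2 fold change 1.77 ± 0.12 SE, adjusted p = 4.63e-07). Its neighbour and paralog Cbr3 had 0 counts in every library.

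Aldh3a1, a dehydrogenase of aromatic and lipid aldehydes, was measured at 27.3 and 31.5 CPM in scramble + IgG and 31.1 and 28.0 CPM in scramble given anti-IL-6R, against 5.54 and 4.56 CPM in shMCT-1 + IgG and 4.64 and 4.37 CPM in shMCT-1 given anti-IL-6R. Every shMCT-1 library was lower than every scramble library, and Aldh3a1 fell 5.97-fold (log2 fold change -2.58 ± 0.10 SE, adjusted p = 9.85e-09). Aldh9a1 rose from 40.2 ± 2.11 to 72.4 ± 2.73 CPM (SD, n = 4 each, log2 fold change 0.90 ± 0.058, SE).

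The 3 tested genes of the AHR group all fell. Ahr (ENSMUSG00000019256, chr12:35497974-35535038) was measured at 40.0 and 33.6 CPM in scramble + IgG and 34.7 and 36.1 CPM in scramble given anti-IL-6R, against 15.9 and 16.2 CPM in shMCT-1 + IgG and 16.6 and 18.9 CPM in shMCT-1 given anti-IL-6R. The backgrounds did not overlap, and Ahr fell 2.07-fold (log2 fold change -1.05 ± 0.079 SE, adjusted p = 1.08e-06). Cyp1b1, a P450 that oxidises estrogens and aromatic compounds, was measured at 17.6 and 22.1 CPM in scramble + IgG and 21.2 and 20.9 CPM in scramble given anti-IL-6R, against 3.02 and 2.35 CPM in shMCT-1 + IgG and 1.76 and 2.28 CPM in shMCT-1 given anti-IL-6R. It had the lowest log2 fold change of the 40 members, with all shMCT-1 libraries below all scramble libraries and a fall of 8.38-fold (log2 fold change -3.07 ± 0.14 SE, adjusted p = 3.79e-08). Tiparp, an ADP-ribosyltransferase that AHR induces and that acts back on AHR, fell from 112 ± 7.56 to 76.8 ± 7.57 CPM (SD, n = 4 each, log2 fold change -0.50 ± 0.078, SE). Cyp1a1, the classical AHR target, had at most 1 count in any library and was not tested. Genes of the wider list that act with AHR did not all follow it. Arnt, the partner with which AHR binds DNA, fell with a log2 fold change of -0.48 ± 0.077, while Hsp90ab1, a chaperone that holds AHR, and Ptges3, its co-chaperone, rose by 0.23 ± 0.061 and 0.53 ± 0.052 (SE). These 3 were named for their roles after their values were seen.

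Both members of the P450 system group rose, whereas the P450 gene Cyp1b1, grouped with AHR above, fell. Cyp2c55, a P450 of the Cyp2c family, was measured at 1.38 and 1.54 CPM in scramble + IgG and 2.40 and 2.03 CPM in scramble given anti-IL-6R, against 7.96 and 8.36 CPM in shMCT-1 + IgG and 6.30 and 6.46 CPM in shMCT-1 given anti-IL-6R. All shMCT-1 libraries were above all scramble libraries, and Cyp2c55 rose 4.07-fold (log2 fold change 2.03 ± 0.19 SE, adjusted p = 5.4e-06). Por, the reductase that passes electrons to microsomal P450 enzymes, rose from 119 ± 9.65 to 153 ± 8.40 CPM (SD, n = 4 each, log2 fold change 0.41 ± 0.075, SE). Of the export pumps, Abcc1, which carries glutathione conjugates out of the cell, fell from 193 ± 10.1 to 140.0 ± 11.7 CPM (SD, n = 4 each, log2 fold change -0.41 ± 0.065, SE), and Abcc4 was not called (0.019 [95% interval -0.17 to 0.20]).

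Separately by treatment, shMCT-1 vs. scramble within IgG gave 28 DEGs among the 40 members (13 higher, 15 lower), where 54.4% of all genes were called (28.3% higher, 26.2% lower). The same comparison within anti-IL-6R gave 27 (13 higher, 14 lower), where 54.3% of all genes were called (26.9% higher, 27.3% lower). In both treatments and in the same direction, 24 members were DEGs (11 higher, 13 lower), against 46.3% of all genes. The log2 fold changes of Nqo1 were -1.99 within IgG and -1.99 within anti-IL-6R, those of Nfe2l2 -1.14 and -0.97, and those of Ephx1 3.92 and 3.60. Gpx1, Prdx1, Txnrd1 and Pgd passed within IgG and not within anti-IL-6R, and Txn1, Tkt and Me1 passed within anti-IL-6R and not within IgG. No member passed the test of the difference itself (interaction), as given further on.

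**Figure D2:**
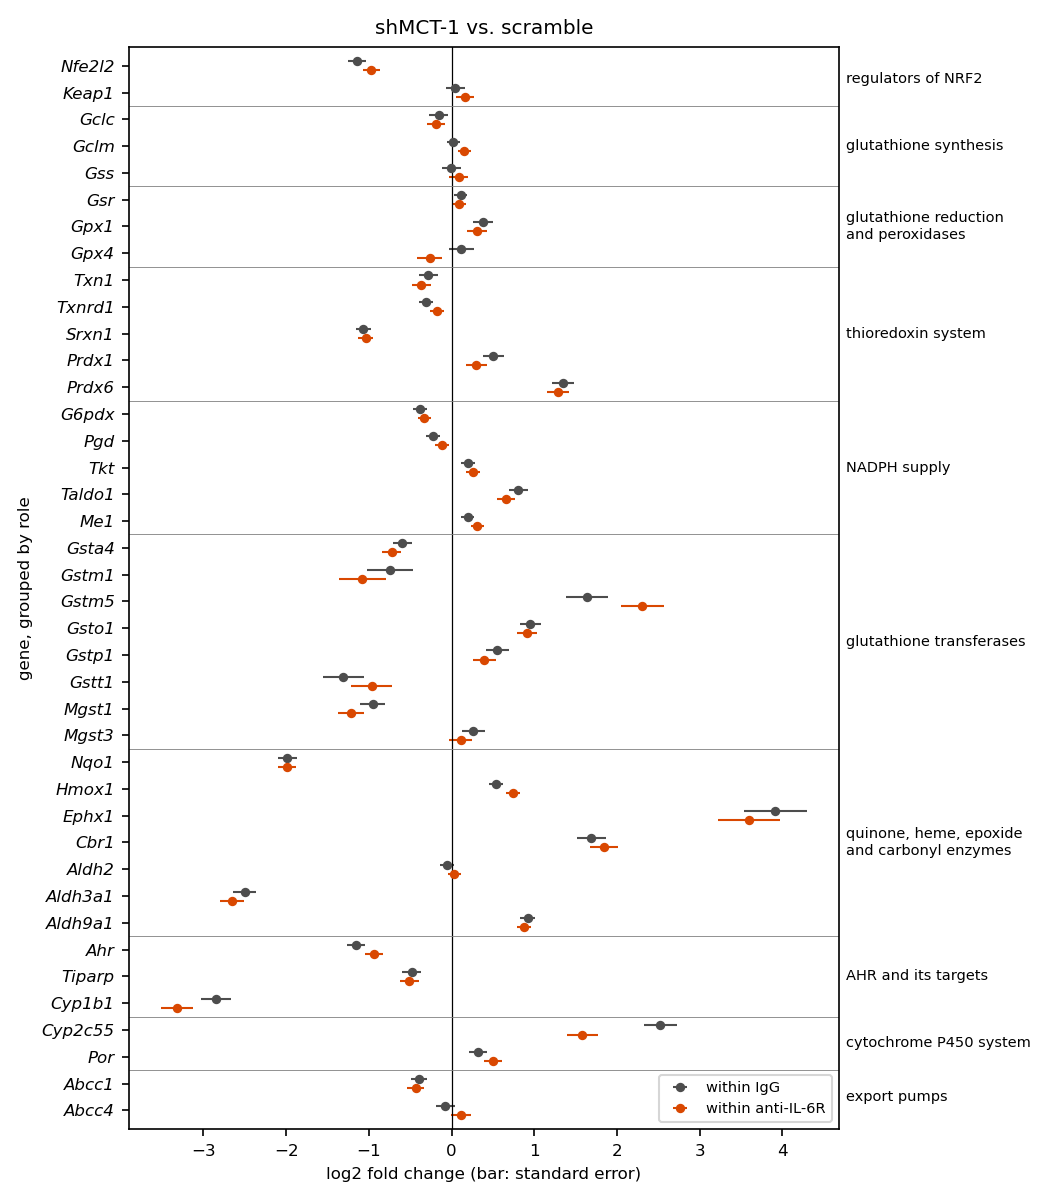
Log2 fold change of shMCT-1 vs. scramble for the 40 tested members, grouped by role, within IgG (grey) and within anti-IL-6R (orange), with bars for the standard error. Values run from -3.32 for Cyp1b1 to 3.92 for Ephx1, and members within most roles lie on both sides of 0.

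Members with and without the ARE motif changed in both directions. Of the 12 members with the motif, 4 rose (Aldh9a1, Gstm5, Prdx1 and Me1), 6 fell (Nfe2l2, Srxn1, Mgst1, G6pdx, Txnrd1 and Pgd) and Gclm and Abcc4 were not called, and their median was -0.076 (log2). Of the 19 tested members with a promoter window and without the motif, 9 rose and 6 fell, with a median of 0.19. No test was made of this difference. Nqo1 was among the members without the motif, and motifs outside these windows were not searched.

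Stable lines can differ over stretches of chromosome, so each member was set beside the other tested genes within 5 Mb. The medians of these neighbours ran from -0.54 around Nfe2l2 to 0.35 around Aldh9a1, and the medians of whole chromosomes that carry members ran from -0.37 (chromosome 2) to 0.21 (chromosome 1). Of the 31 DEGs among the members, 21 lay on the same side of 0 as the median of their neighbours, and 24 lay outside the neighbours' quartiles. Of the 13 members changed at least 2-fold, 9 were still at least 2-fold away from the median of their neighbours. The other 4 were Nfe2l2, Srxn1, Mgst1 and Ahr, whose log2 fold changes differed from those medians by -0.52, -0.79, -0.68 and -0.70. Their neighbours had medians of -0.54, -0.27, -0.40 and -0.35, and the part of such regional shifts in the level of these genes was not tested. The counts of members set against their neighbours were not made for all genes tested, so they show nothing particular to the members.

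**Figure D3:**
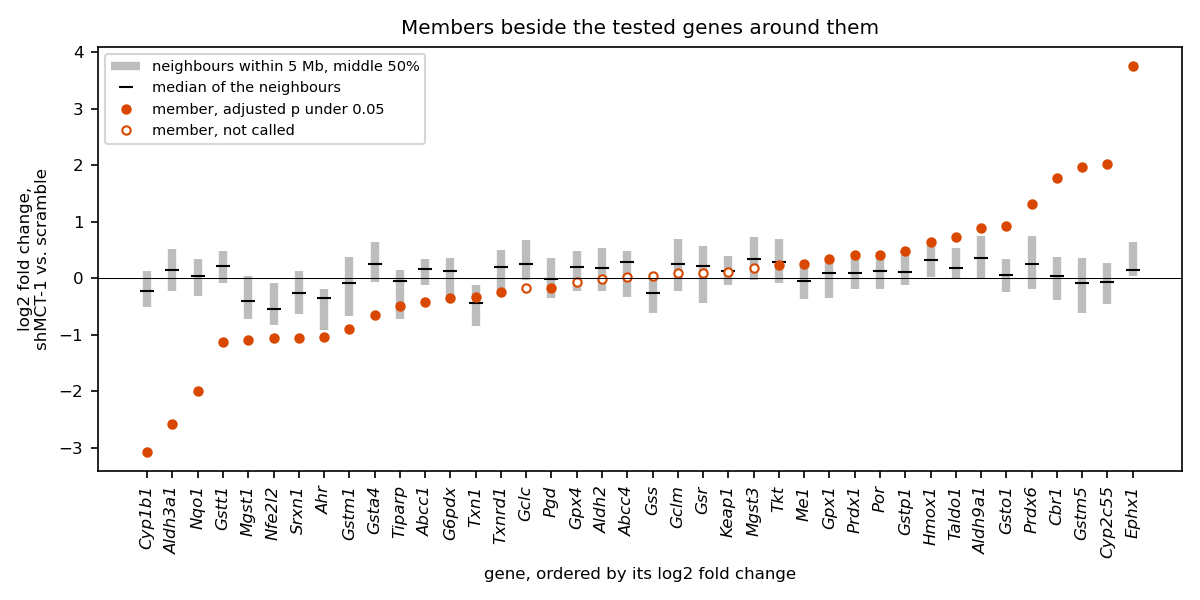
Log2 fold change of shMCT-1 vs. scramble across both treatments for each tested member (orange, filled where called), ordered by value, beside the median (black dash) and the middle 50% (grey bar) of tested genes within 5 Mb. Cyp1b1, Aldh3a1, Nqo1, Cbr1, Gstm5, Cyp2c55 and Ephx1 stand far outside the grey bars, whereas the bars of Nfe2l2 and Ahr are themselves below 0.

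To ask whether blocking IL-6R bears on the same genes, anti-IL-6R was compared with IgG in each background. No member was a DEG in scramble, in shMCT-1 or across both backgrounds with edgeR's quasi-likelihood test, nor with DESeq2, and edgeR's exact test called no member in either background. Of all genes, the quasi-likelihood test called 0% in each of these comparisons. DESeq2 called 0% in scramble, 0.0866% in shMCT-1 and 0.00787% across both backgrounds, and the exact test 0.0787% in scramble and 0.110% in shMCT-1. At an unadjusted p under 0.05, 1 member was counted in scramble (background 1.31%), 0 in shMCT-1 (3.98%) and 0 across both backgrounds (2.79%). The median log2 fold change of the members was 0.0075 in scramble and 0.051 in shMCT-1, and that of all genes was 0.0089 and -0.0067.

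The member with the smallest unadjusted p in either background was Cyp2c55. In scramble its anti-IL-6R libraries (2.40 and 2.03 CPM) were above its IgG libraries (1.38 and 1.54 CPM), with a log2 fold change of 0.59 [95% interval 0.13 to 1.06] and an unadjusted p of 0.018 in the edgeR fit. In shMCT-1 its anti-IL-6R libraries (6.30 and 6.46 CPM) were below its IgG libraries (7.96 and 8.36 CPM), at -0.35 [95% interval -0.73 to 0.035] and an unadjusted p of 0.0705 in the edgeR fit. The interaction of Cyp2c55 was -0.94 [95% interval -1.55 to -0.34] with an unadjusted p of 0.00611 and an adjusted p of 1 in that fit, so that it did not pass. It was the only member counted for the interaction at an unadjusted p under 0.05 (background 2.48%), and no member was a DEG for the interaction with edgeR's quasi-likelihood test (background 0%) or DESeq2 (0.0472%).

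The next members by p in scramble were Gstm5, at -0.53 [95% interval -1.15 to 0.10], and Nfe2l2, at -0.13 [95% interval -0.36 to 0.093]. The estimate for Nfe2l2 turned to 0.021 without replicate 2 of scramble + IgG. In shMCT-1 the next were Hmox1, at 0.16 [95% interval -0.033 to 0.35], and Gclm, at 0.13 [95% interval -0.039 to 0.30]. For Nqo1 the interval was -0.25 to 0.18 in scramble and -0.31 to 0.23 in shMCT-1, and these intervals give the size of change that 2 libraries a group could still hide.

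**Figure D4:**
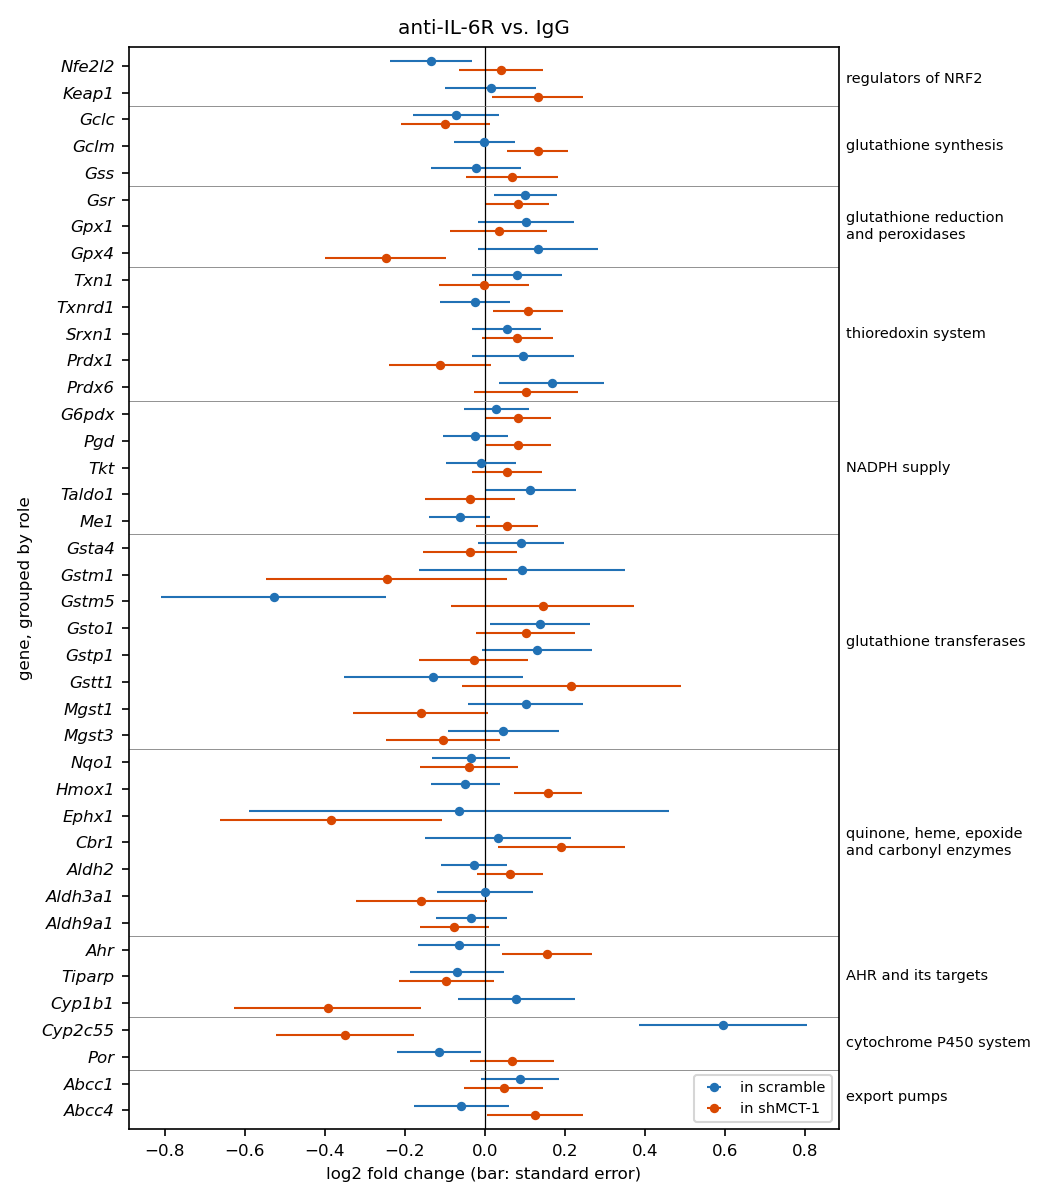
Log2 fold change of anti-IL-6R vs. IgG for the 40 tested members, grouped by role, in scramble (blue) and in shMCT-1 (orange), with bars for the standard error. Estimates run from -0.53 for Gstm5 to 0.59 for Cyp2c55 in scramble, most bars cross 0, and Cyp2c55 lies on opposite sides of 0 in the 2 backgrounds.

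The other genes of the same pathways were read from a list of 115 genes that are no members, of which 86 were tested. Across both treatments 67 of the 86 were DEGs, with 41 higher and 26 lower in shMCT-1, beside the background of 69.0%. Within IgG 55 were called (background 54.4%) and within anti-IL-6R 59 (background 54.3%), a count that became 39 without replicate 2 of scramble + anti-IL-6R. Upon anti-IL-6R none was called in either background or for the interaction with edgeR or DESeq2, and 0 in scramble, 3 in shMCT-1 and 1 for the interaction had an unadjusted p under 0.05.

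Among the DEGs of this list with a mean of at least 1 CPM, Sod3, Gsta1 and Slc7a11 fell most. Slc7a11, the light chain of the cystine/glutamate antiporter that feeds cysteine to glutathione synthesis, fell from 58.9 ± 3.93 to 15.3 ± 0.975 CPM (SD, n = 4 each, log2 fold change -1.89 ± 0.06 SE, adjusted p = 3.21e-09), while Slc3a2, its heavy chain, was not called (0.14 [95% interval 0.009 to 0.26]). Sod3, the extracellular superoxide dismutase, fell from 16.8 ± 1.96 to 1.56 ± 0.351 CPM (log2 fold change -3.37 ± 0.15 SE, adjusted p = 2.92e-08). Gsta1, an alpha class transferase, fell from 3.33 ± 0.350 to 0.722 ± 0.113 CPM (log2 fold change -2.17 ± 0.19 SE, adjusted p = 3.71e-06), with values that are not whole numbers in 7 libraries.

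The listed genes that rose most were Nat2, an arylamine N-acetyltransferase, from 0.606 ± 0.0738 to 2.58 ± 0.309 CPM (log2 fold change 2.13 ± 0.21 SE, adjusted p = 8.09e-06), Ptgr1, an enone reductase, from 4.82 ± 0.142 to 15.2 ± 1.79 CPM (log2 fold change 1.71 ± 0.10 SE, adjusted p = 2.47e-07), and Abcg2, a drug efflux pump, from 0.573 ± 0.0902 to 1.68 ± 0.573 CPM (log2 fold change 1.59 ± 0.28 SE, adjusted p = 0.00039). For all 6 of these genes, named for the size of their change, the scramble and shMCT-1 libraries did not overlap, as for 64.1% of all genes tested. Gstk1, a kappa class transferase named after its values were seen, had at most 1 count in every scramble library and 1.35 ± 0.284 CPM in shMCT-1, which was at least 12.8-fold higher than the mean floor of 3 counts in the scramble libraries. Nat2 and Abcg2, like Gstk1, passed the filter through shMCT-1 libraries alone, and Gsta1 through scramble libraries alone, so that they were tested only because they were high in 1 background. With no filter Nat2, Abcg2 and Gsta1 had log2 fold changes of 2.14, 1.60 and -2.16, again from the same libraries and no further support.

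By role, where 35.0% of all genes were higher and 34.0% lower, 5 of 7 tested genes of the P450 system rose and 1 fell, and 3 of 5 genes of conjugation other than glutathione rose and 0 fell. Of the 7 further genes of the NADPH supply group 4 rose and 1 fell, and of 16 enzymes for quinones, heme, epoxides and carbonyls 7 rose and 3 fell. Counts were more even in glutathione reduction and peroxidases (5 rose and 4 fell of 9), the thioredoxin system (5 and 4 of 10), export pumps (3 and 2 of 6), glutathione synthesis (1 and 2 of 5) and transferases (2 and 3 of 7), while the AHR group had 3 higher and 1 lower of 4. Of the 10 further NRF2 regulators 3 rose and 5 fell. Among the latter, Bach2, a repressor that competes for related elements, fell from 2.48 ± 0.250 to 0.971 ± 0.227 CPM, Mafg and Mafk, small MAF partners of NRF2, fell with log2 fold changes of -0.21 ± 0.051 and -0.23 ± 0.066 (SE), and Sqstm1, which sequesters KEAP1, rose by 0.36 ± 0.055 (SE). These 4 genes and Slc3a2 were named for their roles after their values were seen.

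Several members overlap other tested genes, and the strand setting of the counting was not given in the sources used here. Gclm overlaps Gm17494, Gss overlaps Acss2, G6pdx overlaps Ikbkg, Gsto1 overlaps Cfap43, Tiparp overlaps 4931440P22Rik and Keap1 overlaps Gm16754 on the opposite strand, and Txnrd1 overlaps Eid3 and Gsr overlaps Gm24727 on the same strand. The levels of these members may hold reads of their partners. Outside the transferases, values that are not whole numbers were also found in 8 libraries for Keap1, Gclm, Gpx4, Prdx1, Me1 and Tiparp. They were found in 6 libraries for G6pdx and 4 for Gss, so that these levels too may carry an uncertain split of reads.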

How the data were processed

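RNA of 8 libraries of 4T1 cells was sequenced in 4 groups of 2, with groups, replicate numbers, dose and time taken from the labels. The authors used cutadapt 1.18 for trimming and STAR 2.7.0d for alignment to mm10, and deposited RSEM expected counts per gene, which are normalized neither for depth nor for length. Library kits carried molecular identifiers, and whether the counts were collapsed by them is not given in the sources used here. Of the values above 0, 29.6% were not whole, and all were rounded before testing. CPM are counts per 1000000 counts of a library, so that 1 CPM stood for 19.8 to 33.1 counts. Floors and intervals of shares cover counting error only.

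The 12704 genes above 1 CPM in 2 or more libraries were normalized by TMM and fitted in edgeR 4.0.16 (R 4.3.3) with the quasi-likelihood test, as 4 group means and as an additive model of background and treatment. Adjusted p-values follow Benjamini-Hochberg over all genes tested, and DEGs had an adjusted p under 0.05. Standard errors and 95% intervals came from the F statistic and its degrees of freedom. The script was tested on simulated data. Alternatives were DESeq2 1.42.0, RLE size factors, other filters, edgeR's exact test, only the libraries compared, a replicate block, a 10 Mb window, a longer motif, and leaving out each library. Coordinates, lengths and symbols were taken from GENCODE M21 on GRCm38, in which 54495 of the 54532 identifiers were found without their version.

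The 42 members and the lists were chosen with earlier results of these data known. Values in every library were given for members changed at least 2-fold across both treatments, for Nfe2l2, Keap1, Ahr, Nqo1, Hmox1, Gclc, Gclm, Txnrd1, Srxn1 and Cyp2c55, and for the 3 members with the smallest unadjusted p upon anti-IL-6R in each background. From the wider list, 3 genes were named at each end of the log2 fold change, among DEGs whose mean was at least 1 CPM. Of 116 genes named for that list, Nnt was left out because 2 identifiers carry its symbol. Some genes of the lists are not reported by name here.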

Additional observations from a re-analysis of the deposited data

How the results depend on the processing

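With 2 libraries a group, small changes and the response to anti-IL-6R were the results least well resolved. Leaving out each library in turn gave 21 to 29 DEGs among the members within IgG, 20 to 29 within anti-IL-6R and 30 to 32 across both treatments, and 39 to 60 of the wider list within anti-IL-6R, the 39 without replicate 2 of scramble + anti-IL-6R. DESeq2 gave 28, 29 and 32 members. The replicate numbers did not pair the libraries (correlations of deviations from -0.080 to 0.11), and the fit with the replicate as a block gave 28, 28 and 32 members, with Gclc called (adjusted p = 0.0440). At an unadjusted p under 0.05, 1 member was counted upon anti-IL-6R in scramble and 1 for the interaction, and of the wider list 3 in shMCT-1, 1 for the interaction and 1 across both backgrounds. The median log2 fold change of the members stayed near 0 but not on 1 side of it. With more than 1 CPM required in at least 7 libraries, it was -0.043 within IgG, 0.037 within anti-IL-6R and -0.014 across both treatments, where fewer genes were tested. With libraries left out, it ran from -0.051 to 0.029 within IgG, 0.011 to 0.092 within anti-IL-6R, 0.0036 to 0.065 across both treatments, -0.032 to 0.049 upon anti-IL-6R in scramble and -0.0081 to 0.048 for the interaction. Genes that were not called and turned sign were Aldh2 (0.0026 with no filter, 0.0094 with filterByExpr, -0.032 to 0.024 with libraries left out), Abcc4 (-8.7e-05 with the stricter filter, -0.061 to 0.088), Gss (-0.026 to 0.088), Gpx4 (-0.19 to 0.022) and Nfe2l2 upon anti-IL-6R in scramble (-0.28 to 0.021). Mgst3 was called without replicate 1 of scramble + anti-IL-6R (adjusted p = 0.0375), and Gclc without replicate 1 of scramble + IgG or replicate 2 of shMCT-1 + anti-IL-6R. With 10 Mb in place of 5 Mb, the highest median around a member was 0.33. The ARE core followed by an A was found in 6.06% of the members and 3.45% of all genes with a window. The cause of these shifts was not tested. Of 278 values for single members in shMCT-1 vs. scramble across both treatments under the other settings, 269 kept their direction and their side of the threshold, as did 307 of 320 with libraries left out.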
